A study of Mus musculus with 2 samples.

Results

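Pitx1, Barx1, Barx2, Osr1 and Osr2 encode transcription factors of the developing jaws, teeth and palate, and were taken by gene symbol from the 32285 genes counted, giving 5 of 5 genes. Their levels were described in single sorted cranial neural crest cells (CNCCs) from E11.5 mouse heads, across regions of the facial mesenchyme and between a control and a mutant library. Neural crest cells leave the dorsal neural tube and form most of the facial skeleton and the dental and palatal mesenchyme. The control embryos were Tfap2a wt/flox and Tfap2b wt/flox, and the mutant embryos were Tfap2a flox/flox and Tfap2b flox/flox. Both groups also carried r26 mTmG/mTmG and Wnt1CRE+, so the controls had 1 floxed copy of each gene recombined as well. Wnt1:CRE acts in the dorsal neural tube and switches the mTmG reporter to membrane GFP, and the GFP-positive fraction was collected by cell sorting from heads that included the second pharyngeal arch. Cells of 2 embryos were pooled per genotype, so each group was 1 library, without a replicate check. The bracketed ranges below are 95% intervals that cover counting error only, not differences between embryos.

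The control library held 6148 barcodes and 83542433 unique molecular identifiers (UMIs, tags that mark single captured transcripts), and the mutant library 6063 barcodes and 79206144 UMIs. Filters kept 5625 control and 5587 mutant cells, whose median depths were 13478 and 12234 UMIs. The mesenchyme-like class held 3802 control and 2869 mutant cells, and all 10 mesenchyme markers were higher there than in the other cells, among them Prrx1 and Twist1. Tfap2a was 19.5 counts per 1000000 UMIs (CPM) in control and 13.6 CPM in mutant mesenchyme, and Tfap2b 57.9 and 47.8 CPM. A 3′ tag does not show whether the floxed part of a transcript is present, so these levels do not check the genotype. Xist UMIs were present in 98.7% of the control cells and 0.07% of the mutant cells of the mesenchyme, whereas the Y-linked gene Ddx3y was found in 0 control cells and 52.6% of mutant cells, so that the sex of the embryos and their genotype cannot be told apart throughout. The libraries shared 5 barcodes among the kept cells.

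Pitx1 is a bicoid-type homeobox gene of the oral region, the lower jaw and the hindlimb. Barx1, a homeobox gene, marks the proximal jaw mesenchyme in which molars form, where epithelial FGF8 induces it and BMP4 restricts it. Its relative Barx2 is known from epithelia and developing cartilage. Osr1 and Osr2 are odd-skipped zinc finger genes. Osr2 drives outgrowth of the palatal shelves and keeps teeth in a single row by opposing the Msx1 and Bmp4 pathway on the tongue side of the molar germ.

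The 5 genes lie on 4 chromosomes of GRCm38. Pitx1 (ENSMUSG00000021506) is at chr13:55825051-55836192 on the minus strand, and Barx1 (ENSMUSG00000021381) at chr13:48662998-48666507 on the plus strand. Barx2 (ENSMUSG00000032033) is at chr9:31846044-31913462 on the minus strand. Osr1 (ENSMUSG00000048387) is at chr12:9570116-9581500 and Osr2 (ENSMUSG00000022330) at chr15:35296098-35303305, both on the plus strand. No stretch of 31 bases was shared between the annotated transcripts of any pair of them, so the members could be counted apart from each other. Pitx1 overlapped the antisense gene Gm47071, which had 57 control and 33 mutant UMIs, and the same-strand gene Gm28760, with 75 and 38 UMIs. Whether counting used strand is not given in the sources used here, so the Pitx1 count could hold a few UMIs of these neighbours.

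The targeted factors TFAP2A and TFAP2B bind GC-rich palindromes, and a promoter from RefSeq was at hand for Barx1, the most abundant member. The 212 bases before the annotated gene start, chr13:48662786-48662997 on the plus strand of GRCm38.p6, are shown with the match to a TFAP2 palindrome in capitals.
Barx1 promoter: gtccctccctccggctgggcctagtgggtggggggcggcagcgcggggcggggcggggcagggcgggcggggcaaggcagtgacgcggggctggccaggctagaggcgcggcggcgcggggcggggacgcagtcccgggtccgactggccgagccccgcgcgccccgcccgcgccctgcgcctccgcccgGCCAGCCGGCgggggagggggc
In a window of 300 bases around the RefSeq start (250 before and 50 after it), GCCNNNNGGC matched 1 time, 60 bases before that start, and GCCNNNGGC matched 0 times. Both motifs read the same on the 2 strands and cannot start at the same base. Over 32851 promoters of that length, 14.8% held GCCNNNNGGC and 16.6% held GCCNNNGGC. The Barx1 window was 84.7% G or C, and among the 386 promoters within 5 points of that content the shares were 63.0% and 64.8%. The match is a description of letters and not evidence of binding. Pitx1, Barx2, Osr1 and Osr2 have no entry in the promoter table.

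Across the whole mesenchyme, Barx1 was the most abundant of the 5 genes, followed by Pitx1, Osr1 and Osr2, in that order in both libraries. A 3′ library counts transcript ends, so these CPM levels do not scale with transcript length. Barx1 had 16799 control and 11349 mutant UMIs, or 286 (282 to 291) and 256 (251 to 261) CPM. Pitx1 had 5461 and 2794 UMIs, or 93.0 (90.6 to 95.5) and 63.0 (60.7 to 65.4) CPM. Both genes were therefore lower in the mutant library, Pitx1 by -0.56 (-0.63 to -0.50) and Barx1 by -0.16 (-0.20 to -0.13) in log2 ratio of mutant over control. Osr1 had 2973 and 2462 UMIs, or 50.7 (48.8 to 52.5) and 55.5 (53.4 to 57.8) CPM, with a log2 ratio of 0.13 (0.06 to 0.21). Osr2 had 808 and 627 UMIs, or 13.8 (12.8 to 14.7) and 14.1 (13.1 to 15.3) CPM, with a log2 ratio of 0.04 (-0.11 to 0.19). The sign for Osr1 was not stable, since the log2 ratio was -0.02 when each cell was thinned to 7000 UMIs. Thinning also left out the cells below that depth, and the cause of the turn was not tested. The share of thinned mesenchyme cells with an Osr1 UMI stayed higher in the mutant library, by 2.36 (0.38 to 4.35) percentage points. Of the 4 genes with at least 100 UMIs, 0 differed by 1.5-fold or more. Among all 11681 genes with as many UMIs, 0.925% were lower and 2.53% higher by that much.

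Barx2 was close to absent. It had 10 UMIs in 10 control cells and 8 UMIs in 5 mutant cells of the mesenchyme, or 0.170 (0.0817 to 0.313) and 0.180 (0.0779 to 0.356) CPM, and its log2 ratio of 0.08 (-1.46 to 1.58) shows that no difference was detectable at this depth. Over all kept cells it had 12 control and 15 mutant UMIs. Barx2 is known from epithelium, and epithelial markers were low in the mesenchyme, which does not show how much epithelium the whole sort held. Cdh1 had 1 and 6 UMIs and Krt5 0 and 4 UMIs in control and mutant. Epcam, the highest of the 12 epithelial markers, had 225 and 203 UMIs. The 12 markers summed to 9.57 and 11.46 CPM. In the 5 mutant mesenchyme cells with a Barx2 UMI, that sum was 406 CPM, against 10.7 CPM in the mutant cells without one. Glia markers were also higher in them (566 against 47.2 CPM), as were neuron markers (381 against 263 CPM) and 1 of the 5 was called a doublet. In the 10 control cells with a Barx2 UMI the epithelial sum was 0 CPM. The part of other cell types in the few Barx2 UMIs was not tested.

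Clustering of the mesenchyme, from which the 5 members were withheld, gave 6 clusters, 5 of which were named from marker genes. A frontonasal-like cluster (1216 control and 764 mutant cells) was led by Pax7 and Alx1, and a second arch-like cluster (675 and 700 cells) by Hoxa2, Emx2 and Dlx3. A maxillary-like cluster (694 and 503 cells) was led by Lhx6 and Lhx8, a mandibular-like cluster (758 and 396 cells) by Hand2 and Hand1, and a mural-like cluster (368 and 364 cells) by Vtn and Tagln. Cluster 5, with 91 control and 142 mutant cells, stayed unnamed because neural genes led it, and 46.2% and 54.2% of its cells were called doublets. Brain progenitor-like cells, which should lack the 5 genes, served as background for RNA set free by other cells.

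**Figure D1:**
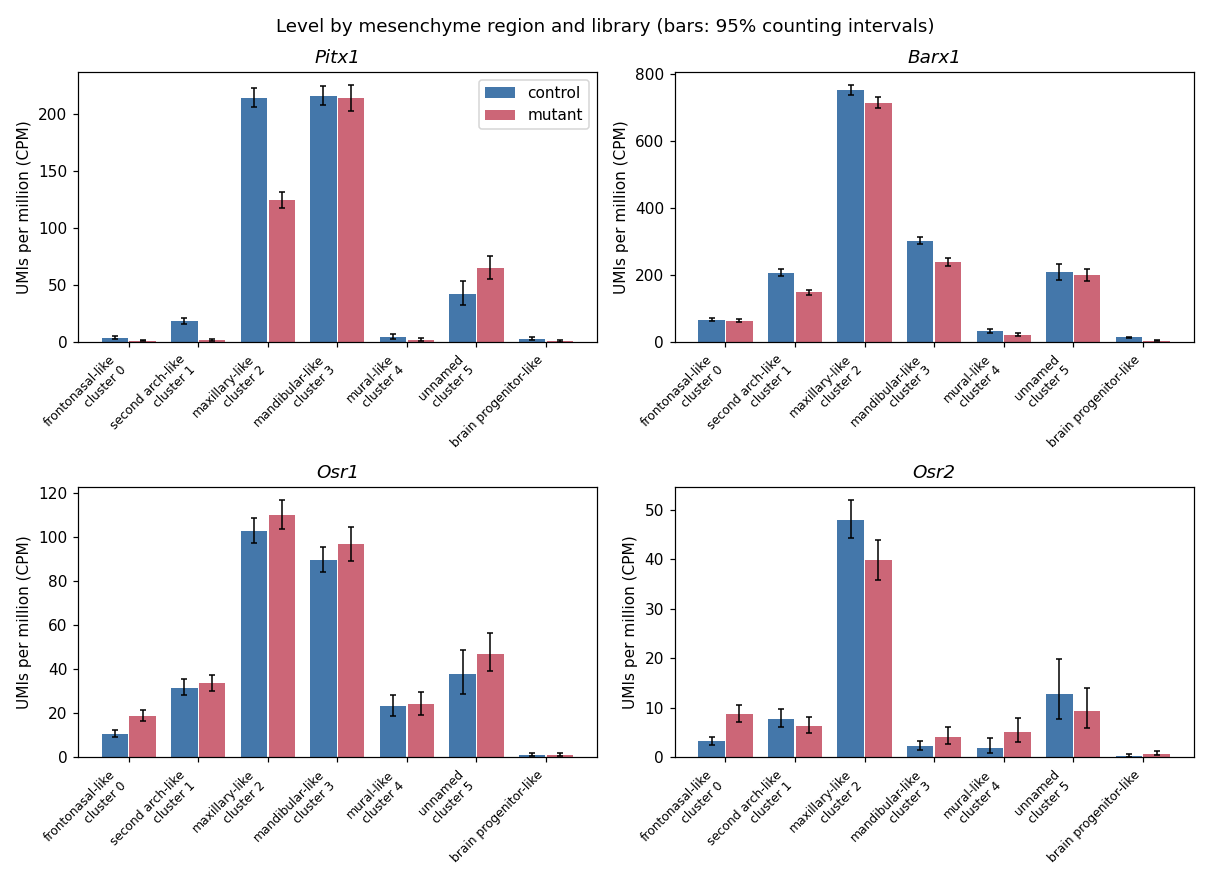
Level of 4 genes, in CPM (linear axes from 0), in each mesenchyme cluster and in brain progenitor-like cells, with control bars in blue, mutant bars in red and 95% counting intervals as lines. Barx1 and Osr2 peak in the maxillary-like cluster, while Pitx1 and Osr1 are high in the maxillary-like and the mandibular-like cluster. The maxillary-like Pitx1 bar is 214 CPM in control and 124 CPM in mutant, and the mandibular-like bars are 216 and 214 CPM.

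Pitx1 was highest in the maxillary-like and mandibular-like clusters in both libraries. Its control level was 216 (207 to 225) CPM in the mandibular-like and 214 (206 to 222) CPM in the maxillary-like cluster, which did not differ beyond their intervals. The second arch-like cluster followed with 18.3 (15.6 to 21.2) CPM. The mural-like and frontonasal-like clusters, at 4.49 and 4.05 CPM, lay at the level of control neuron-like cells (4.68 CPM) and near that of brain progenitor-like cells (2.82 CPM), and these values are read as background.

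In the mutant library the maxillary-like and mandibular-like clusters parted. Pitx1 was 214 (202 to 225) CPM in the mandibular-like cluster, with a log2 ratio of -0.01 (-0.11 to 0.08). In the maxillary-like cluster it was 124 (117 to 131) CPM, a log2 ratio of -0.79 (-0.88 to -0.69), on 2747 control and 1217 mutant UMIs. The intervals of these ratios do not overlap, so the difference between the clusters exceeds counting error. In the second arch-like cluster Pitx1 had 174 control UMIs in 50 cells and 17 mutant UMIs in 10 cells. The mutant level there, 1.77 (1.03 to 2.83) CPM, was close to the 0.918 (0.502 to 1.54) CPM of mutant brain progenitor-like cells, and the log2 ratio was -3.37 (-4.18 to -2.65). Pitx1 was the only member lower by 1.5-fold or more in the maxillary-like cluster, where 2.0% of all genes were lower and 1.96% higher. In the second arch-like cluster, too, it was the only one, where 1.83% of all genes were lower and 4.17% higher.

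Finer clusters placed the lower Pitx1 level more closely. Within the maxillary-like cells, Pitx1 was 283 and 153 CPM in finer cluster 2, led, beside the Osr genes, by Zmat4, Pcdh10 and Lhx8, and 135 and 95.2 CPM in finer cluster 3, led by Lhx6 and Sim2. The log2 ratios were -0.89 (-1.02 to -0.77) and -0.50 (-0.67 to -0.33). Most of the second arch-like difference came from finer cluster 0, which stayed unnamed and was led by Dlx3, Hoxa2 and Emx2. There, 42 of 514 control cells and 5 of 448 mutant cells held a Pitx1 UMI, and the Pitx1 level was 18.8 and 1.69 CPM. The finer cluster named second arch-like, cluster 7, had only 9 control and 4 mutant Pitx1 UMIs. The log2 ratio in it was -1.83 (-3.98 to 0.01), with an interval that held 0. Among the mandibular-like cells the directions were mixed. Pitx1 was 198 and 150 CPM in finer cluster 5 (led by Hand2), 200 and 287 CPM in finer cluster 9 (led by Gpr50 and Syt6), and 265 and 262 CPM in finer cluster 11 (led by Hand1).

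A region call without clustering changed part of this picture. Mesenchyme cells were sorted into exclusive gates by at least 2 UMIs of Hoxa2, Hoxb2, Hoxa3 and Hoxb3 (second arch), then Hand1 and Hand2 (distal mandibular), Dlx3 to Dlx6 (proximal arch), Lhx6 and Lhx8 (oral maxillary) and Alx1 and Alx4 (frontonasal). The genes of the last gate were chosen after values had been seen. Of the control Pitx1 UMIs, 59.1% lay in the proximal arch gate, 32.8% in the distal mandibular gate and 4.74% in the oral maxillary gate. Pitx1 in the distal mandibular gate was 224 and 221 CPM, with a log2 ratio of -0.02 (-0.13 to 0.08). In the proximal arch gate it was 255 and 163 CPM, with a log2 ratio of -0.65 (-0.75 to -0.55). In the distal mandibular gate the libraries thus did not differ beyond counting error, and in the proximal arch gate the mutant level was lower. The second arch gate did not show the large difference of the second arch-like cluster, with 51 control and 72 mutant UMIs and a log2 ratio of 0.43 (-0.11 to 0.97). In the oral maxillary gate Pitx1 was higher in the mutant library, at 30.3 and 44.8 CPM, with a log2 ratio of 0.57 (0.32 to 0.81). In the frontonasal gate Pitx1 was 0.884 and 4.67 CPM on 15 and 41 UMIs. Its log2 ratio there was 2.40 (1.52 to 3.36), opposite in sign to the frontonasal-like cluster. The control value lay below the 2.82 CPM of control brain progenitor-like cells, and the mutant value above the 0.918 CPM of mutant ones. This ratio thus sets a control level within the background against few mutant UMIs. The 666 control and 984 mutant cells in no gate had 15.7 and 11.1 CPM. The gated regions held different shares of the cells, and the proximal arch gate took 762 control and 384 mutant cells. Several gate genes themselves differed between control and mutant mesenchyme. Hand1 was 10.5 and 3.56 CPM, Dlx5 82.6 and 65.7 CPM and Alx1 190 and 118 CPM. Hoxa2 was higher in the mutant library, at 15.8 and 24.6 CPM, and Lhx8 was close, at 91.1 and 93.6 CPM. A gate can therefore hold different cells in the 2 libraries, and the effect on the gate ratios was not tested.

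Over the whole mesenchyme and in the maxillary-like cluster, the share of cells with Pitx1 was lower in the mutant library, as was the level. With every cell thinned to 7000 UMIs, which left out 171 control and 214 mutant mesenchyme cells below that depth, the share of mesenchyme cells with Pitx1 was 14.8% (13.6 to 15.96) in control and 11.2% (10.0 to 12.5) in mutant, against 1.14% and 0.44% of brain progenitor-like cells. Without thinning the mesenchyme shares were 16.8% and 12.8%, at median depths of 14515 and 14365 UMIs, and the brain progenitor-like cells had median depths of 11633 and 11393 UMIs. In the maxillary-like cluster the thinned shares were 30.8% (27.3 to 34.4) and 22.3% (18.7 to 26.2), and positive cells held a mean of 4.59 and 3.72 UMIs. In the mandibular-like cluster the share was 35.7% (32.3 to 39.3) in control and 40.6% in mutant. Cells of high Pitx1, with 10 or more UMIs before thinning, made up 6.42% of control and 4.08% of mutant mesenchyme cells. The log2 ratio over the whole mesenchyme was closer to no difference when the make-up of the libraries was held fixed. With the shares of the 6 clusters held at those of both libraries together, the log2 ratio was -0.43, which is 76.7% of the value without this step. With the shares of the gates held in the same way it was -0.29, or 51.5% of that value. A gate can hold different cells in the 2 libraries, so this step does not separate make-up from level. The part of make-up in the difference was not tested.

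**Figure D2:**
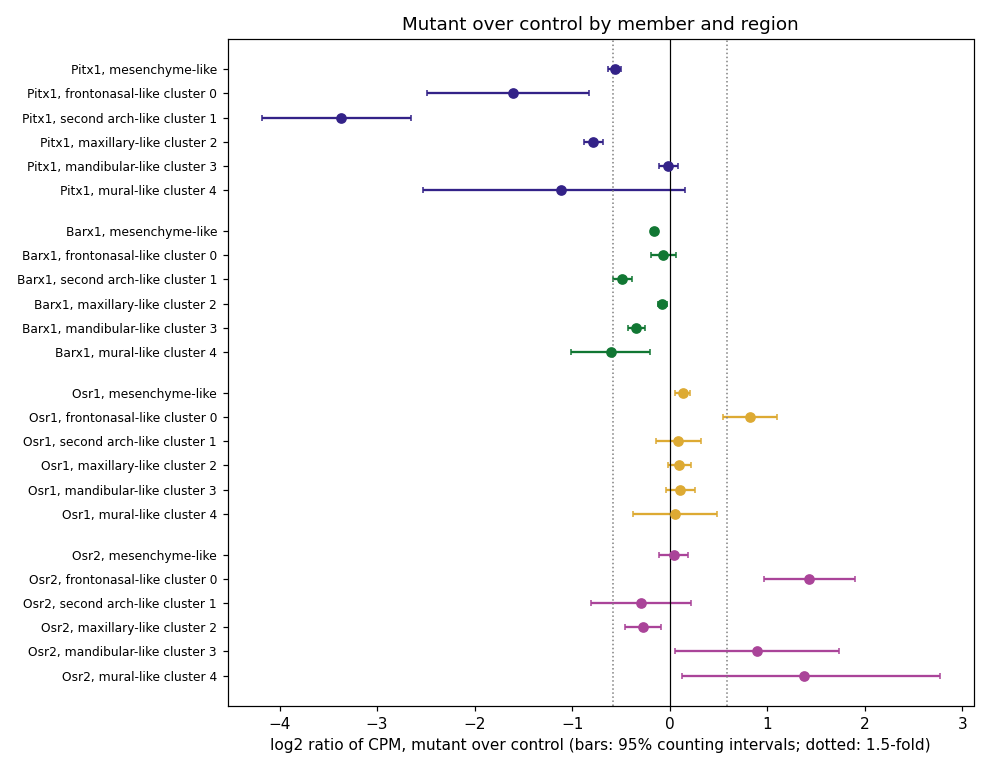
Log2 ratio of CPM, mutant over control, for 4 genes in the whole mesenchyme and in the 5 named clusters, with 95% counting intervals as lines and dotted lines at 1.5-fold. Pitx1 points lie at or left of 0, at -3.37 in the second arch-like and -0.79 in the maxillary-like cluster. The Osr1 and Osr2 points of the frontonasal-like cluster lie right of the upper dotted line, at 0.82 and 1.42.

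Barx1 peaked in the maxillary-like cluster. Control levels were 754 (739 to 769) CPM there, 303 (292 to 313) in the mandibular-like, 208 (199 to 218) in the second arch-like, 67.6 (64.1 to 71.4) in the frontonasal-like and 33.5 (28.03 to 39.6) CPM in the mural-like cluster. None of these neighbours in the order had overlapping intervals. The background in control brain progenitor-like cells was 14.2 (11.9 to 16.8) CPM, and glia-like cells had 28.9 (24.4 to 34.0) CPM, which overlaps the mural-like level. Mutant levels, in the same order, were 715, 239, 149, 64.6 and 22.0 CPM, against a background of 4.33 CPM. The order of the clusters was thus the same in both libraries.

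Mutant and control Barx1 levels were close in the maxillary-like cluster, where the gene was highest, with a log2 ratio of -0.08 (-0.12 to -0.03). In the frontonasal-like cluster, where it was low, the log2 ratio was -0.07 (-0.19 to 0.06). The gap was wider in the mandibular-like cluster, at -0.34 (-0.43 to -0.25), and in the second arch-like cluster, at -0.49 (-0.59 to -0.39). In the mural-like cluster it was -0.61 (-1.02 to -0.20) on 134 and 85 UMIs, and Barx1 was there the only member past 1.5-fold among those with at least 30 UMIs. In the brain progenitor-like background the log2 ratio was -1.72 (-2.16 to -1.28), and the mural-like value was not corrected for it. Of the finer clusters that overlapped it, periocular-like finer cluster 4 had 132 and 81 UMIs, or 45.2 and 31.7 CPM (-0.51, -0.93 to -0.10). Mural-like finer cluster 12 had 2 and 4 UMIs, or 2.11 and 3.08 CPM. The mural-like value thus rested mainly on cells outside mural-like finer cluster 12. In the mural-like cluster 2.19% of all genes were lower and 5.74% higher by 1.5-fold or more.

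The mandibular-like difference sat in a single finer cluster. In finer cluster 5, led by Hand2, Bnc1 and Hand1, Barx1 was 281 (267 to 295) CPM in control and 99.9 (89.1 to 112) CPM in mutant, on 1591 and 311 UMIs, with a log2 ratio of -1.49 (-1.67 to -1.31). Barx1 UMIs were found in 166 of 342 control and 62 of 172 mutant cells of that cluster. Finer clusters 9 and 11 did not follow, with 329 and 401 CPM (0.28, 0.14 to 0.43) and 318 and 330 CPM (0.05, -0.11 to 0.21). Away from the jaws, Barx1 was 75.0 and 28.9 CPM in the periocular-like finer cluster 6, led by Crtac1 and Foxc2, a log2 ratio of -1.38 (-1.71 to -1.06), and 130 and 70.2 CPM in the second arch-like finer cluster 7, a log2 ratio of -0.89 (-1.19 to -0.59). By gate, the log2 ratios were -0.26 (-0.37 to -0.15) in the distal mandibular and -0.37 (-0.50 to -0.24) in the second arch gate. They were 0.00 (-0.06 to 0.06) in the proximal arch and -0.03 (-0.09 to 0.03) in the oral maxillary gate. In the frontonasal gate Barx1 was higher in the mutant library, at 0.28 (0.12 to 0.44). The cells in no gate had a wider difference, of -0.58 (-0.69 to -0.48). After thinning, Barx1 was held by 36.7% (35.2 to 38.3) of the control mesenchyme cells and 32.7% (30.9 to 34.5) of the mutant ones, against 2.27% and 1.60% of brain progenitor-like cells. Positive cells without thinning held a mean of 10.5 and 10.7 UMIs, and up to 79 and 69.

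**Figure D3:**
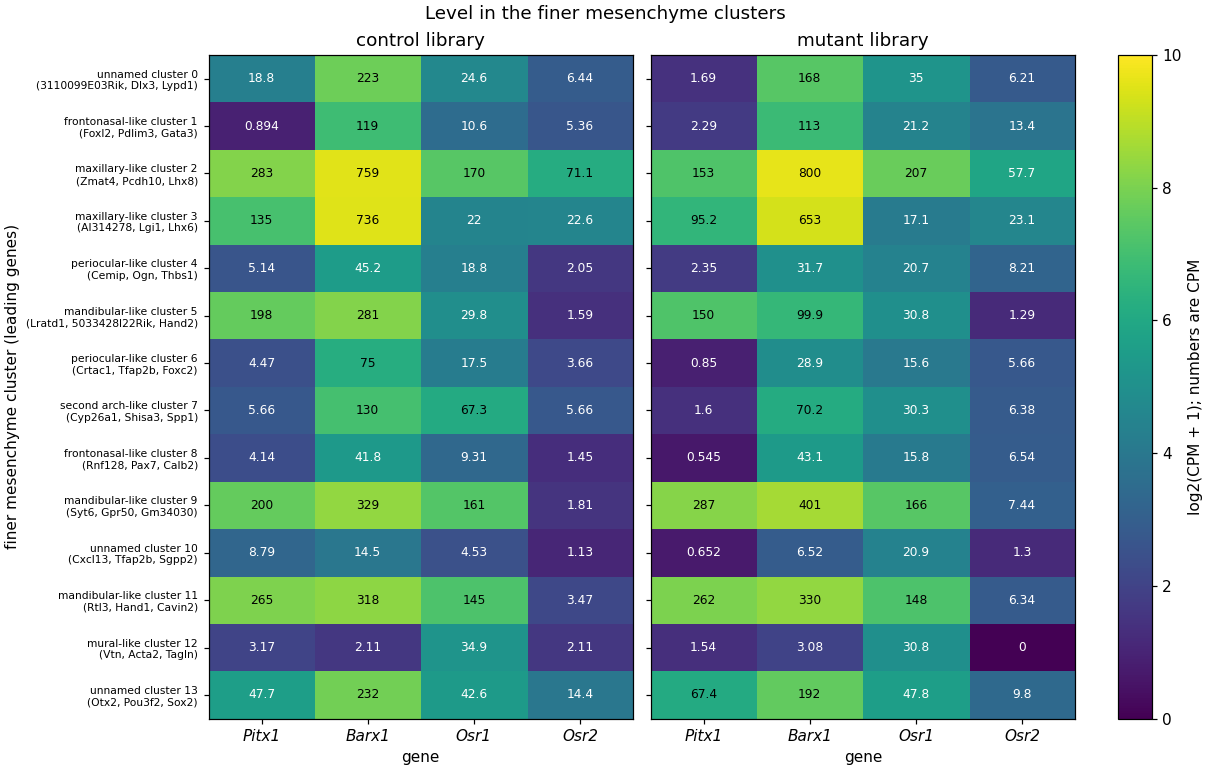
Level of 4 genes in 14 finer mesenchyme clusters, shown as log2(CPM + 1) by colour with the CPM printed in each cell, for the control library on the left and the mutant library on the right. Row labels give the cluster name and some of its leading genes. Barx1 in mandibular-like cluster 5 is 281 CPM in control and 99.9 CPM in mutant, and Osr2 is highest in maxillary-like cluster 2 in both libraries.

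Osr1 was highest in the maxillary-like and mandibular-like clusters. Its control level was 103 (97.4 to 109) CPM in the maxillary-like and 89.7 (84.2 to 95.5) CPM in the mandibular-like cluster, followed by 31.6 CPM in the second arch-like, 23.2 CPM in the mural-like and 10.7 CPM in the frontonasal-like cluster. In the mutant library these were 110, 96.6, 33.5, 24.1 and 18.9 CPM. The background was 0.941 CPM in control and 1.12 CPM in mutant brain progenitor-like cells. The maxillary-like, mandibular-like, second arch-like and mural-like log2 ratios all had intervals that held 0, from 0.05 to 0.11. Within the maxillary-like cells the gene was concentrated in finer cluster 2, at 170 and 207 CPM (0.29, 0.17 to 0.41). It was low in finer cluster 3, at 22.0 and 17.1 CPM. By gate, control Osr1 was 85.0 CPM in the proximal arch, 77.2 CPM in the distal mandibular and 45.5 CPM in the oral maxillary gate.

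The frontonasal-like cluster stood apart. Osr1 had 211 UMIs in 100 of 1216 control cells and 228 UMIs in 109 of 764 mutant cells, or 10.7 (9.30 to 12.2) and 18.9 (16.5 to 21.5) CPM. The log2 ratio was 0.82 (0.55 to 1.10), and in the frontonasal gate it was 1.01 (0.71 to 1.32), on 10.5 and 21.2 CPM, so both region calls gave a higher mutant level. With thinned cells the value in the cluster was 0.49, which is below 1.5-fold. Finer frontonasal-like cluster 1, led by Foxl2, had 10.6 and 21.2 CPM. The opposite direction was seen in second arch-like finer cluster 7, at 67.3 and 30.3 CPM (-1.15, -1.59 to -0.71), while the Dlx3-led finer cluster 0 had 24.6 and 35.0 CPM (0.51, 0.23 to 0.79). Osr1 was also lower in the mutant cells in no gate, at 59.0 and 34.2 CPM on 436 and 390 UMIs (-0.79, -0.99 to -0.59).

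Osr2, unlike Osr1, was concentrated in 1 cluster. The maxillary-like cluster held 76.4% of its control UMIs and 18.3% of the control mesenchyme cells. Its control level was 48.0 (44.3 to 52.0) CPM there, 7.76 (6.10 to 9.75) CPM in the second arch-like, 3.24 (2.50 to 4.14) in the frontonasal-like, 2.27 (1.47 to 3.35) in the mandibular-like and 2.00 (0.862 to 3.94) CPM in the mural-like cluster. The frontonasal-like, mandibular-like and mural-like values did not differ beyond their intervals. Background was 0.209 (0.0253 to 0.755) CPM. Osr1 and Osr2 were therefore both high in the maxillary-like cells, and the mandibular-like cells held Osr1 with little Osr2. By gate, 67.2% of the control Osr2 UMIs lay in the proximal arch gate, at 42.9 CPM, and 13.5% in the oral maxillary gate, at 12.7 CPM.

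In the mutant library Osr2 was less concentrated, with 62.2% of its UMIs in the maxillary-like cluster, which held 17.5% of the cells. Its level there was 39.8 (35.9 to 43.9) CPM, a log2 ratio of -0.27 (-0.46 to -0.09), and this direction was lost after thinning, at 0.09. In the proximal arch gate the log2 ratio was -0.13 (-0.35 to 0.08), and in the oral maxillary gate the sign was opposite, at 0.66 (0.28 to 1.03), on 12.7 and 20.1 CPM. In the frontonasal-like cluster the level was 8.70 (7.12 to 10.5) CPM, on 105 UMIs in 64 of 764 cells, against 64 UMIs in 43 of 1216 control cells. The log2 ratio there was 1.42 (0.96 to 1.90). In the frontonasal gate Osr2 was 3.59 and 10.5 CPM, with a log2 ratio of 1.54 (1.06 to 2.03). After thinning, an Osr2 UMI was held by 1.95% (1.24 to 2.91) of the control frontonasal-like cells and 6.03% (4.41 to 8.01) of the mutant ones, so the shares did not overlap, and both lay above the 0.14% and 0.36% of brain progenitor-like cells. Osr1 and Osr2 were the 2 members higher by 1.5-fold or more in that cluster, where 3.04% of all genes were higher and 2.08% lower. Pitx1 was lower there by -1.61 at background level, beside -1.62 in brain progenitor-like cells, and the finer frontonasal-like clusters together gave -0.29, so no direction is read from it. Epithelial markers summed to 10.5 and 7.71 CPM and muscle markers to 1.12 and 0.912 CPM in these cells.

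In the second arch-like cluster Osr2 had 74 control and 61 mutant UMIs, or 7.76 and 6.33 CPM. The log2 ratio there was -0.29 (-0.807 to 0.215), with an interval that held 0. In the mandibular-like and mural-like clusters Osr2 was too sparse for firm values. It had 25 and 27 UMIs in the mandibular-like cluster, or 2.27 and 4.21 CPM, and 8 and 20 UMIs in the mural-like cluster, under the 30 UMIs set for a region. In the mandibular-like cluster, 0 of the 3 members with at least 30 UMIs passed 1.5-fold, against 2.97% of all genes lower and 1.35% higher. Over the whole mesenchyme, thinned shares of cells with Osr2 were 4.52% (3.86 to 5.24) in control and 6.86% (5.92 to 7.88) in mutant, while positive thinned cells held a mean of 1.88 and 1.63 UMIs. In finer maxillary-like cluster 2, where both Osr genes peaked, Osr2 was 71.1 (65.0 to 77.7) and 57.7 (51.1 to 64.9) CPM.

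**Figure D4:**
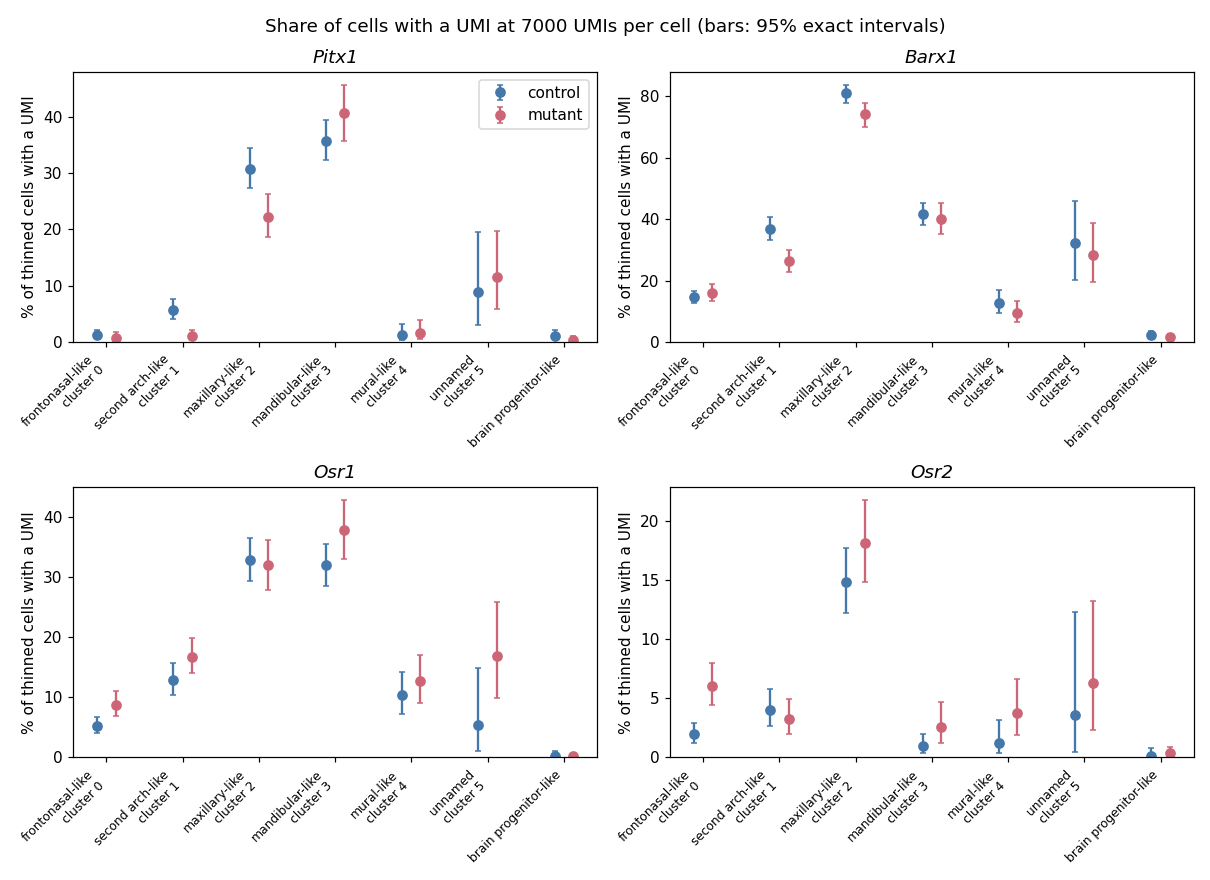
Share of cells with at least 1 UMI of 4 genes after thinning to 7000 UMIs per cell, by mesenchyme cluster and in brain progenitor-like cells, with control in blue, mutant in red and 95% exact intervals as lines. Osr2 in the frontonasal-like cluster is 1.95% in control and 6.03% in mutant, with intervals that do not overlap. Pitx1 in the second arch-like cluster is 5.67% in control and 1.08% in mutant.

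The members met in the same cells. Of the control mesenchyme cells with Pitx1 after thinning, 80.8% (77.2 to 84.0) also held Barx1, against 29.1% (27.5 to 30.7) of those without Pitx1. In the mutant library the shares were 71.8% (66.3 to 76.8) and 27.7% (25.9 to 29.6). Pitx1 and Barx1 thus shared cells in both libraries, the regions and the depth of the cells being shared as well. Osr1 was found in 40.9% (33.3 to 48.8) of control cells with Osr2 and in 16.6% of those without it, and in 34.1% (27.2 to 41.4) and 19.0% in the mutant library. Among cells with Osr2, Pitx1 was present in 33.5% (26.4 to 41.3) in the control and 17.0% (11.9 to 23.3) in the mutant library. None of the 5 genes was seen in 52.7% of the control cells and 53.3% of the mutant cells, 4 of them in 34 and 16 cells, and all 5 in 0 cells of either library.

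The 28 points used here (14 finer clusters in 2 libraries) came from 1 clustering and are not independent. Over them, the genes most like each member in log2(CPM + 1) were named by Pearson's r, as a description. For Pitx1 they were Hand2 (0.85), a factor of the distal lower jaw, Gpr50, G3bp2, Hand2os1 and Lhx6. For Barx1 they were Lhx8 (0.88), a LIM homeobox gene of the oral jaw mesenchyme, Rhobtb3, Kdm1a, Mycn and Lhx6. Osr1 was most like Sostdc1 (0.74), a secreted BMP and WNT antagonist, Nrk, Ndn, Slf2 and Magel2. The genes nearest to Osr2 were Mrrf (0.82), Ube2e3, Pcdh17, Gm13429 and Ift57. Barx2 had under 300 UMIs and was not ranked.

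Other genes of tooth and palate development were taken from lists and compared over the whole mesenchyme. Over all genes, 0.925% were lower and 2.53% higher by 1.5-fold, as given above. Of 10 odontogenic mesenchyme genes, 0 were lower and 0 higher by 1.5-fold, with a median log2 ratio of -0.18 against 0.02 over all genes tested. The widest differences were Pax9 (30.3 and 20.3 CPM, -0.57), a paired-box gene upstream of Osr2 in the palate, Msx2 (57.9 and 39.2 CPM, -0.56), Msx1 (422 and 318 CPM, -0.41) and the osteogenic factor Runx2 (9.93 and 13.0 CPM, 0.38). Of 10 palatal shelf genes, 2 were higher and 0 lower, with a median of -0.01. Meox2, a homeobox gene of the posterior palate, had 187 and 407 UMIs, or 3.19 and 9.18 CPM (1.53, 1.27 to 1.78), and Foxf2 was 16.2 and 25.0 CPM (0.62, 0.50 to 0.75). Mn1 (42.1 and 60.5 CPM, 0.52) and Foxf1 (28.9 and 22.4 CPM, -0.37) did not reach 1.5-fold. FGF and BMP signals are the known inputs of Barx1. Of 6 readouts of FGF signalling with 100 UMIs, among them Spry4 (8.64 and 7.29 CPM) and Spry2 (27.7 and 24.7 CPM), and of 8 readouts of BMP signalling, among them Smad7 (59.4 and 48.6 CPM) and Bambi (61.5 and 51.8 CPM), 0 passed 1.5-fold in either direction.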

How the data were processed

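Single-cell RNA-seq was deposited for 1 control and 1 mutant library of sorted CNCCs. The authors made whole-number UMI counts with Cell Ranger (6.0.0 in the file headers) from 10x 3′ libraries aligned to mm10, and deposited them without normalization. Sums over cells were expressed as counts per 1000000 UMIs (CPM).

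Barcodes with over 10% mitochondrial UMIs, under 200 or over 7500 genes were removed, as in the study. Seurat 5.3.0 (R 4.3.3) joined both libraries by anchor integration with 2000 variable genes and 30 dimensions, and classes were taken at a resolution of 0.05. The mesenchyme was then clustered on its own with 20 dimensions at 0.2, with finer clusters at 0.8. The 5 members, Tfap2a, Tfap2b, outcome genes named by the study, sex-linked and haemoglobin genes took no part in clustering. Clusters were called "-like" where at least 3 markers of a list were higher than in the other cells, and stayed unnamed where their 10 leading genes held more markers of another list. Doublets were called with Scrublet in scanpy 1.11.5 and kept, and removed as an alternative.

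No test was run, since cells are not replicates. CPM carry exact Poisson intervals, log2 ratios exact conditional binomial intervals and shares exact Clopper-Pearson intervals (scipy 1.17.1), all at 95%. These computations were tested on simulated data. Genes were set past 1.5-fold with at least 100 UMIs in 1 or both libraries, or 30 within a region. Of the gene identifiers, 32235 of 32285 were found in GENCODE M21. Named genes were the 5 members, up to 4 genes of widest log2 ratio per list, and the 5 genes most like each member. The members and lists were chosen with earlier results of these data known, and the naming of clusters was settled after clusters had been seen. Alternatives covered scaling (edgeR 4.0.16), weighting, thinning, doublets, integration, gene selection, cluster make-up and gates. The frontonasal gate as first set is not reported here, and a gate of Alx1 and Alx4 was used in its place.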

Additional observations from a re-analysis of the deposited data

Results flagged for a closer look

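Several members had log2 ratios of opposite sign in different parts of the mesenchyme, with counting intervals on both sides that left out 0. Each group was 1 library, so these differences between parts were not tested. By cluster, Osr2 was 1.42 (0.96 to 1.90) in the frontonasal-like and -0.27 (-0.46 to -0.09) in the maxillary-like cluster, where thinning brought it to 0.09. By gate, Pitx1 was 0.57 (0.32 to 0.81) in the oral maxillary gate and -0.65 (-0.75 to -0.55) in the proximal arch gate. Osr1 was 0.54 (0.41 to 0.67) in the proximal arch gate and -0.29 (-0.54 to -0.03) in the second arch gate.

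Among the finer clusters, Pitx1 was 0.52 (0.34 to 0.70) in mandibular-like cluster 9 and -0.89 (-1.02 to -0.77) in maxillary-like cluster 2. Barx1 was 0.28 (0.14 to 0.43) in mandibular-like cluster 9 and -1.49 (-1.67 to -1.31) in mandibular-like cluster 5. Osr1 was 1.00 (0.56 to 1.45) in frontonasal-like cluster 1 and -1.15 (-1.59 to -0.71) in second arch-like cluster 7. Osr2 was 1.32 (0.72 to 1.94) in frontonasal-like cluster 1 and -0.30 (-0.52 to -0.09) in maxillary-like cluster 2.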

How the results depend on the processing

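Over the whole mesenchyme, Pitx1 and Barx1 stayed lower in the mutant library under every alternative run. Pitx1 moved from -0.56 to -0.70 with equal weight per cell, -0.87 over all kept cells, -0.64 without the 10 cells of most UMIs per library and -0.43 with cluster shares held fixed. Barx1 moved from -0.16 to -0.23 with equal weight per cell and -0.48 over all kept cells. Osr1 turned from 0.13 to -0.0009 with equal weight per cell, -0.019 after thinning and -0.16 over all kept cells. Osr2 moved from 0.04 to 0.39 after thinning and -0.25 over all kept cells. All kept cells hold different shares of mesenchyme in the libraries, which is built into that alternative. For the others the cause was not tested. The remaining 38 of 49 values stayed within the counting interval, among them those with TMM scaling (a shift of -0.03), without doublets, without integration and without unnamed cluster 5, an alternative chosen after seeing the data.

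By region, 61 of 76 values stayed within the interval, and Osr2 in the maxillary-like cluster turned to 0.091 after thinning, also added later. Finer mural-like cells had 2 and 4 Barx1 UMIs, and their log2 ratio of 0.54 had the opposite sign to the -0.61 of the mural-like cluster. With gates of 1 UMI, Pitx1 in the second arch gate was -0.66 against 0.43, where the interval of the latter held 0. The shares of all genes lower and higher by 1.5-fold, 0.925% and 2.53%, were 2.08% and 4.70% with a floor of 30 UMIs and 13.3% and 15.1% without a filter.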

Other observations

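Outside the mesenchyme the members were near background, and for Pitx1 and Barx1 that background itself was lower in the mutant library. Pitx1 had 101 UMIs in 1823 control cells and 55 UMIs in 2718 mutant cells, or 4.28 and 1.67 CPM, and Barx1 394 and 243 UMIs, or 16.7 and 7.38 CPM. Glia-like cells had the highest Barx1 level outside the mesenchyme, at 28.9 control and 13.7 mutant CPM. Osr1 was 1.14 and 1.85 CPM and Osr2 0.466 and 0.577 CPM in these cells.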
